A study of Mus musculus with 10 samples.

Results

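The miR-17~92 cluster was followed through small RNA sequencing of mouse splenic B-cells. Its members were the rows of the count table that belong to the microRNA class and carry the name of a mature product of the Mir17hg transcript: mmu-miR-17-5p, mmu-miR-17-3p, mmu-miR-18a-5p, mmu-miR-18a-3p, mmu-miR-19a-3p, mmu-miR-19b-3p, mmu-miR-20a-5p, mmu-miR-20a-3p and mmu-miR-92a-3p, written without the species prefix from here on. All 9 of 9 listed products were found among 2015 features of the microRNA class and 6968 features of the whole table. The B-cells were CD43- spleen cells of 3 genotypes: wt, 3'RR-deficient (without the regulatory region downstream of the IgH genes, which encode antibody heavy chains) and Eµ-deficient (without the intronic IgH enhancer and its flanking matrix attachment regions, MAR). Both deletions are constitutive, on a 129 background shared with wt, and mice of both sexes aged 8 to 12 weeks were used. CD43- splenocytes were kept for 2 days in growth medium, either alone (non-stimulated) or with 5 µg/ml of lipopolysaccharide (LPS), a bacterial activator of B-cells. For every library, RNA came from the cells of 2 mice pooled. There were 2 libraries for each of the 4 groups of wt and 3'RR-deficient cells and 1 library for each of both Eµ-deficient groups, 10 in all. The labels do not say whether the pools of a group came from separate cultures, so the p-values measure the spread between these libraries only.

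MicroRNAs of this cluster are cut from 1 long RNA. Mir17hg, also known as an oncogenic locus amplified in B-cell lymphoma and driven by MYC, folds into 6 hairpins, and each hairpin can release a 5p and a 3p mature strand that guides Argonaute to messenger RNAs. The seed, bases 2 to 8 of the strand, selects the targets, and the cluster carries several seed families, which are known to repress the pro-apoptotic Bcl2l11 (Bim). In B-cells the cluster is known for its role at the pro-B to pre-B transition and in lymphoproliferation. Related clusters lie elsewhere: miR-106a~363 on the X chromosome, which carries further copies of miR-19b and miR-92a, and miR-106b~25 in the gene Mcm7.

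The mature sequences of the members are shown because the seed families, and the near identity of some members to one another and to X-linked relatives, decide what a count can and cannot separate. They were read from RefSeq (GRCm38.p6), 5′ to 3′, with the seed in capitals.
mmu-miR-17-5p: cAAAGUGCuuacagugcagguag
mmu-miR-20a-5p: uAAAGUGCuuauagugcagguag
mmu-miR-18a-5p: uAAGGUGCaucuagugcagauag
mmu-miR-19a-3p: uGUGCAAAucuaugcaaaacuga
mmu-miR-19b-3p: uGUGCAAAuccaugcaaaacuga
mmu-miR-92a-3p: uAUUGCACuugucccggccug
mmu-miR-17-3p: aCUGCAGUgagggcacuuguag
mmu-miR-18a-3p: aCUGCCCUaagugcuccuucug
mmu-miR-20a-3p: aCUGCAUUacgagcacuuaaag

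miR-17-5p and miR-20a-5p share the seed AAAGUGC, miR-19a-3p and miR-19b-3p share GUGCAAA, and miR-18a-5p (AAGGUGC) and miR-92a-3p (AUUGCAC) each have their own. The 3p strands of miR-17, miR-18a and miR-20a have 3 different seeds. Counted from 1 at the 5′ end, and written with the base of the first-named strand before the position, miR-17-5p and miR-20a-5p differ by C1U and C12U and miR-19a-3p and miR-19b-3p by U11C alone. The members are 21 to 23 nt long, so levels are compared without a correction for length.

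The X-linked relatives with the same seeds, and the 5p strands that tell both miR-92a hairpins apart, are shown for the same reason.
mmu-miR-106a-5p: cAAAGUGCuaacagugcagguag
mmu-miR-20b-5p: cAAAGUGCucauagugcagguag
mmu-miR-18b-5p: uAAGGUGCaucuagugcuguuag
mmu-miR-363-3p: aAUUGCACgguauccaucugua
mmu-miR-92a-1-5p: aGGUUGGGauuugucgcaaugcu
mmu-miR-92a-2-5p: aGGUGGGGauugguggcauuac

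Against miR-106a-5p, miR-17-5p differs by U10A only. miR-20a-5p and miR-20b-5p differ by U1C and U10C, and miR-18a-5p and miR-18b-5p by A18U and A20U. How reads that match several of these were assigned is not given in the sources used here, so the counts of such pairs are uncertain at the level of single names.

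Of the names, 7 have 1 place in the genome. In GRCm38, on the plus strand of chromosome 14, they run from miR-17-5p (chr14:115043684-115043706) through miR-17-3p (chr14:115043721-115043742), miR-18a-5p (chr14:115043867-115043889), miR-18a-3p (chr14:115043908-115043929), miR-19a-3p (chr14:115044048-115044070) and miR-20a-5p (chr14:115044183-115044205) to miR-20a-3p (chr14:115044219-115044240), all in an exon of the long non-coding RNA Mir17hg (chr14:115042879-115046727). miR-19b-3p and miR-92a-3p have identical mature copies on chromosome 14 (chr14:115044358-115044380 and chr14:115044476-115044496, again in an exon of Mir17hg) and on the minus strand of chromosome X, where the table places them (chrX:52741991-52742013 and chrX:52741854-52741874, in the hairpins Mir19b-2 and Mir92-2). Their counts therefore do not separate the loci.

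Library totals ran from 3482540.0 to 18144016 counts, and the members took between 2.53% (wt non-stimulated replicate 1) and 12.5% (wt non-stimulated replicate 2) of the microRNA counts of a library, against 5.37% to 7.63% in the LPS libraries. The second non-stimulated libraries of wt and 3'RR-deficient cells stood apart: they were the shallowest (3482540.0 and 3756662 counts), and in both the replicate difference followed the GC content of the mature sequence, by 1.07 and 0.874 on the log2 scale per 10% of GC over 497 microRNAs (81.9% of the mature names tested), against -0.248 and -0.189 in the LPS pairs. Among the members the order was looser, with miR-20a-3p (40.9% GC, -1.46) above miR-17-5p (47.8%, -2.39) in wt cells. miR-92a-3p, with the highest GC content (57.1%), was higher in replicate 2, by 1.51 for wt and by 0.980 for 3'RR-deficient cells (log2), and miR-19a-3p, with the lowest (34.8%), was -3.81 and -4.55 from replicate 1. The log2 fold changes of the members with LPS are therefore given with and without these libraries. miRNAs known from lymphocytes were present in every library, with 5 of 5 listed ones at a summed 89739 to 255680 CPM without and 87970 to 154390 CPM with LPS. CPM are counts per 1000000 microRNA counts after TMM scaling, edgeR's correction for library composition.

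**Figure D1:**
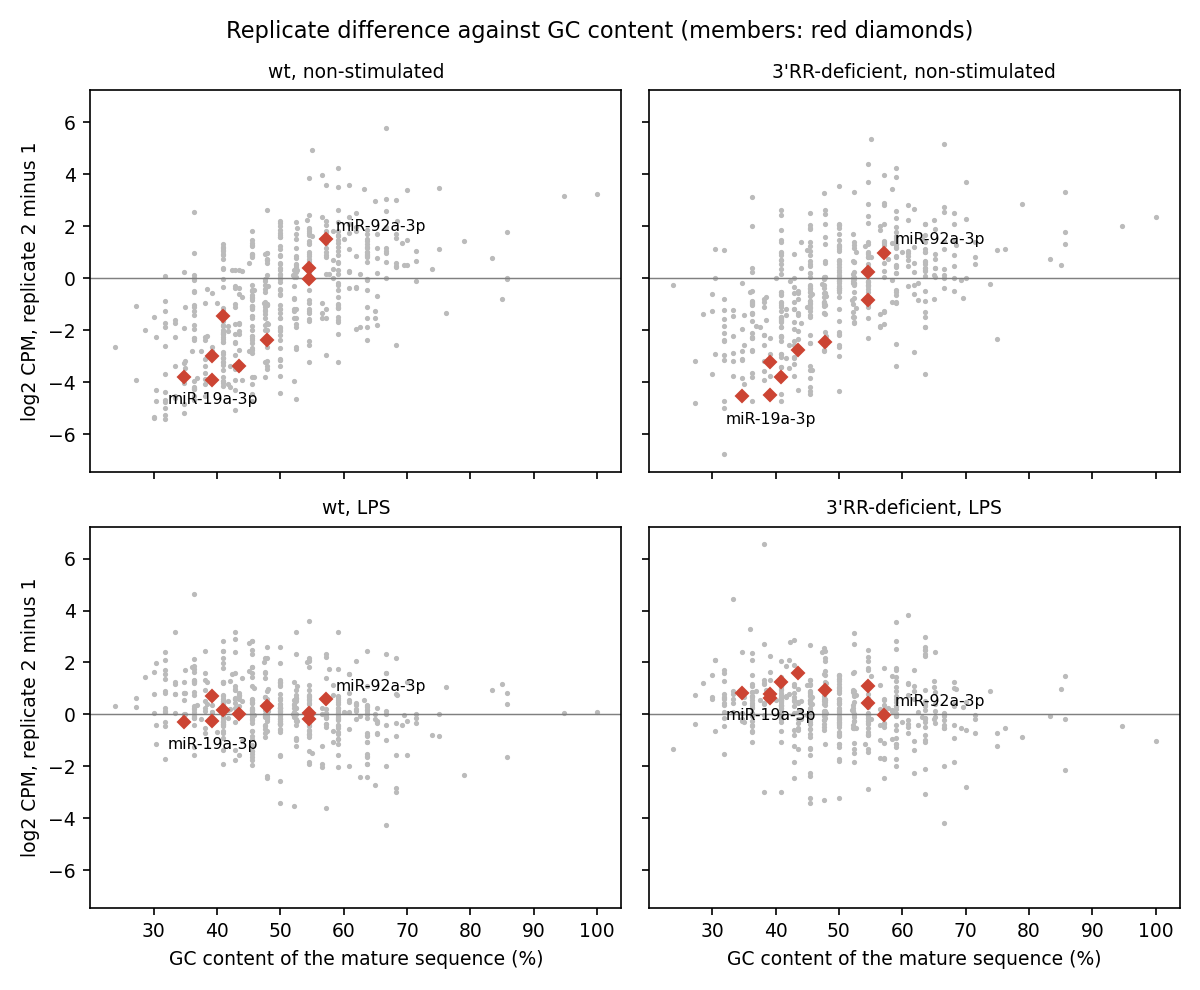
Log2 CPM of replicate 2 minus replicate 1 against the GC content of the mature sequence in the 4 pairs of libraries, 1 grey dot for each of 497 microRNAs and red diamonds for the 9 members. In both non-stimulated pairs miR-19a-3p (34.8% GC) lies low, at -3.81 and -4.55, and miR-92a-3p (57.1% GC) highest of the members, at 1.51 and 0.980. In the LPS pairs miR-19a-3p and miR-92a-3p lie between -0.284 and 0.842.

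miR-92a-3p was the most abundant product in every library, and by the mean over libraries the 5p strand of miR-20a came next, although miR-17-3p (145.2 CPM) lay above it (133 CPM) in wt non-stimulated replicate 2. Over the 10 libraries miR-92a-3p exceeded miR-20a-5p in 10 of 10, by a ratio of counts of 12.6 to 692, and miR-20a-5p exceeded miR-17-5p in 10 of 10, by 1.29-fold to 2.65-fold. miR-19b-3p lay above miR-19a-3p, the strand that differs from it by 1 base, in 10 of 10 libraries (2.18-fold to 3.27-fold), and miR-17-3p above miR-18a-3p and miR-18a-3p above miR-20a-3p in 10 of 10. The neighbours in between had no fixed order: miR-17-5p exceeded miR-19b-3p in 7 libraries (2 of 5 non-stimulated, 5 of 5 LPS), miR-19a-3p exceeded miR-18a-5p in 8, and miR-18a-5p exceeded miR-17-3p in 4, all of them LPS libraries.

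Of all the counts of the 9 members, miR-92a-3p held 92.1% to 93.9% in the non-stimulated first replicates and the Eµ-deficient non-stimulated library, 99.5% in both second non-stimulated libraries and 83.2% to 92.4% in the 5 LPS libraries. miR-20a-5p held 2.59% to 3.04%, 0.144% to 0.151% and 3.56% to 6.74% in the same sets, and miR-17-5p held 0.980% to 1.16%, 0.0836% to 0.0957% and 1.77% to 4.26%. The makeup of the cluster thus differed between libraries of the same group as well as between conditions.

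**Figure D2:**
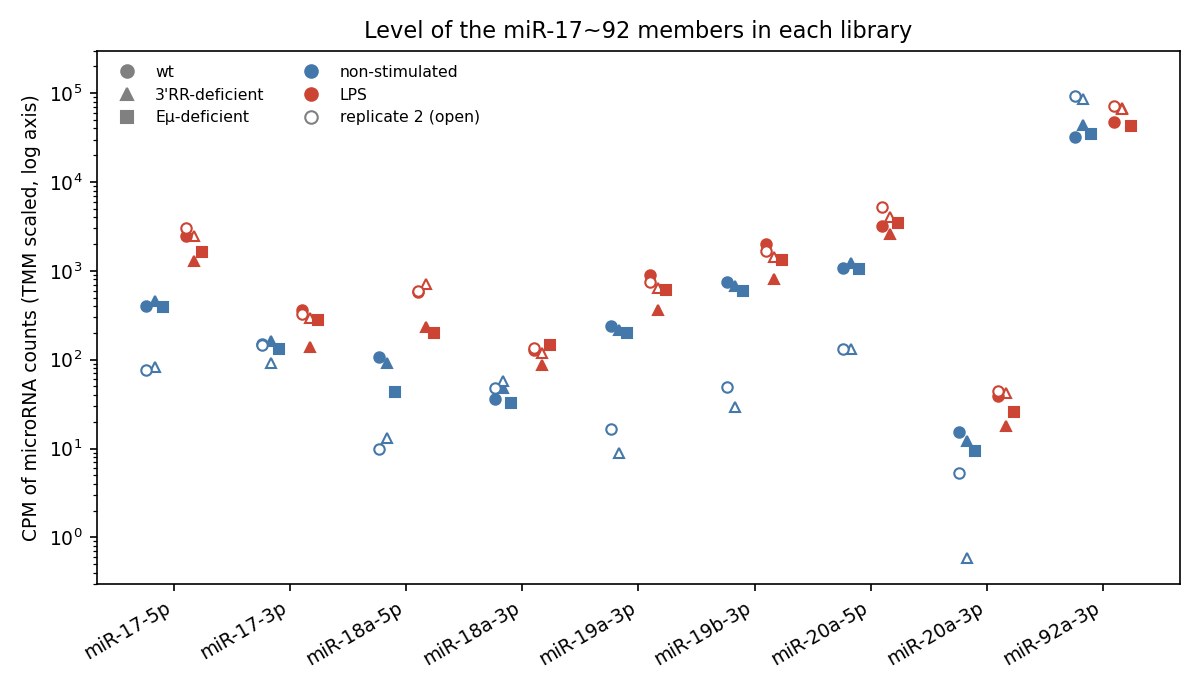
CPM of the 9 members in each of the 10 libraries on a log axis, blue without and red with LPS, with circles for wt, triangles for 3'RR-deficient and squares for Eµ-deficient cells and open symbols for replicate 2. The LPS symbols lie above all non-stimulated ones for 7 members, miR-17-3p overlaps through 1 LPS library (139 CPM), and miR-92a-3p overlaps throughout.

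The first comparison asked how the members respond to LPS. Across wt and 3'RR-deficient cells together, 4 members rose: miR-17-5p, miR-18a-5p and miR-20a-5p, the strands of the AAAGUGC and AAGGUGC seeds, rose 5.87-fold to 9.34-fold, and miR-18a-3p rose 2.44-fold. The other strands had positive values that missed the threshold, except miR-92a-3p, whose level with LPS lay within the range of the non-stimulated libraries. The test was edgeR's quasi-likelihood F-test (two-sided) on 4 LPS against 4 non-stimulated libraries with genotype as a term, with Benjamini-Hochberg adjustment over all features and an adjusted p under 0.05 as the threshold. The 4 of 9 called members compare with 21.8% of the 720 features tested called in either direction and 13.2% called higher. The median log2 fold change of the 9 members was 2.08, against 0.07 over all features tested, and 7 of 9 members and 264 of the 720 features had an unadjusted p under 0.05. The number of called members was 0 when all features of the table were fitted (180 of 3987 features called), 8 with the GC trend removed (131 of 501), and 1 to 6 with 1 library left out, the 1 without wt LPS replicate 1 (75 of 870).

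miR-17-5p, the first product of the cluster, stood at 406 and 77.3 CPM in the wt non-stimulated libraries (replicates 1 and 2) and at 2444 and 3026 CPM in the wt LPS libraries. In 3'RR-deficient cells it stood at 459 and 83.5 CPM without and at 1291 and 2493 CPM with LPS, and in Eµ-deficient cells at 395 CPM without and 1615 CPM with LPS. The group means were 242 ± 232 and 2735 ± 411 CPM for wt without and with LPS, and 271 ± 266 and 1892 ± 850 CPM for the 3'RR-deficient genotype (SD, n = 2 each). Every LPS library lay above every non-stimulated one, and the second non-stimulated libraries were the lowest. Its log2 fold change was 3.14 (SE 0.67, 95% interval 1.66 to 4.62, adjusted p = 0.00967 by edgeR's quasi-likelihood test). The fold depended on the non-stimulated library: in wt it was 6.02-fold to 7.46-fold against replicate 1 and 31.6-fold to 39.2-fold against replicate 2, and in 3'RR-deficient cells 2.81-fold to 5.43-fold and 15.5-fold to 29.9-fold. Without both second non-stimulated libraries the log2 fold change was 2.26 (adjusted p = 0.000961) and without both first ones 4.67 (adjusted p = 2.04e-05). The call held when any 1 of the 8 libraries was left out, and it was lost when all features of the table were fitted (2.26, adjusted p = 0.124).

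miR-20a-5p, which shares the seed of miR-17-5p, had 1067 and 133 CPM in wt non-stimulated libraries and 3165 and 5234 CPM with LPS. In 3'RR-deficient cells it had 1215 and 131 CPM without and 2594 and 4054 CPM with LPS, and in Eµ-deficient cells 1043 and 3416 CPM. The LPS libraries again lay above all non-stimulated ones in each genotype. Its log2 fold change was 2.55 (SE 0.75, 95% interval 0.89 to 4.21, adjusted p = 0.0355 by edgeR). It was 1.59 without both second non-stimulated libraries (adjusted p = 0.00607) and 4.67 without both first ones (adjusted p = 1.71e-05), and leaving out 1 library ended the call in 5 of 8 cases, with adjusted p up to 0.0794. Those 5 libraries were wt non-stimulated replicate 2 (adjusted p = 0.0719), wt LPS replicates 1 (0.0794) and 2 (0.0791), 3'RR-deficient non-stimulated replicate 2 (0.0525) and 3'RR-deficient LPS replicate 1 (0.0582).

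miR-18a-5p, whose processing from the cluster is known to be assisted by Hnrnpa1, had 108 and 9.99 CPM in wt non-stimulated libraries and 575 and 589 CPM with LPS. In 3'RR-deficient cells it had 90.9 and 13.0 CPM without and 232 and 707 CPM with LPS, and in Eµ-deficient cells 43.5 and 197 CPM. No non-stimulated library reached the lowest LPS library. The log2 fold change was 3.22 (SE 0.78, 95% interval 1.5003 to 4.95, adjusted p = 0.0159 by edgeR), 2.28 without both second non-stimulated libraries (adjusted p = 0.00159) and 5.35 without both first ones (adjusted p = 3.54e-05). Without wt LPS replicate 1 the adjusted p was 0.0513. Its partner strand miR-18a-3p had 36.3 and 48.0 CPM in wt non-stimulated libraries, 129 and 135 CPM in wt LPS libraries, 48.0 and 57.1 CPM in 3'RR-deficient non-stimulated and 88.0 and 119 CPM in 3'RR-deficient LPS libraries, with 32.3 and 146 CPM in Eµ-deficient cells. Here the second non-stimulated libraries were the higher ones of each pair, and the groups did not overlap. The log2 fold change was 1.29 (SE 0.40, 95% interval 0.40 to 2.17, adjusted p = 0.0422 by edgeR), and it passed in 8 of 21 alternatives. By edgeR the adjusted p was 0.145 with total count scaling and 0.0599 with mature microRNAs only. It was 0.148 without the filter and 0.272 when all features of the table were fitted. That call was lost when any 1 of the 8 libraries was left out (adjusted p 0.0807 to 0.163), it was kept without both second non-stimulated libraries (1.36, adjusted p = 0.0204), and it was lost without both first ones (1.01, adjusted p = 0.0518).

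The miR-19 pair, the strands with the GUGCAAA seed that is known for oncogenic activity of the cluster in B-cells, had positive values that did not pass. miR-19a-3p had 238 and 16.6 CPM in wt non-stimulated libraries, 909 and 746 CPM in wt LPS libraries, 215 and 8.88 CPM in 3'RR-deficient non-stimulated and 359 and 643 CPM in 3'RR-deficient LPS libraries, with 198 and 609 CPM in Eµ-deficient cells. miR-19b-3p had 747 and 49.3 CPM, 1994 and 1672 CPM, 667 and 29.0 CPM, and 809 and 1414 CPM in the same groups, and 599.5 and 1329 CPM in Eµ-deficient cells. For both strands all LPS libraries lay above all non-stimulated ones, and the second non-stimulated libraries were more than 10-fold below the first. The log2 fold changes were 2.44 (SE 0.91, adjusted p = 0.0789 by edgeR) for miR-19a-3p and 1.95 (SE 0.90, adjusted p = 0.144) for miR-19b-3p. Without both second non-stimulated libraries they were 1.39 (adjusted p = 0.0150) and 0.90 (adjusted p = 0.0819), and without both first ones 5.59 and 5.11 (adjusted p = 1.71e-05 for each).

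miR-20a-3p, the rarest member, had 15.2 and 5.33 CPM in wt non-stimulated libraries and 39.0 and 44.1 CPM with LPS. In 3'RR-deficient cells it had 12.02 and 0.592 CPM without LPS, the latter from 2 counts, and 17.7 and 42.2 CPM with LPS, and in Eµ-deficient cells 9.32 and 26.1 CPM. The groups did not overlap, and the log2 fold change of 2.08 (SE 0.72) had an adjusted p of 0.0599 by edgeR. It was 1.28 without both second non-stimulated libraries (adjusted p = 0.0472) and 3.70 without both first ones (adjusted p = 0.00200), past the threshold in each case. miR-17-3p had 149 and 145.2 CPM in wt non-stimulated libraries, 365 and 326 CPM in wt LPS libraries, 164 and 92.4 CPM in 3'RR-deficient non-stimulated and 139 and 295.0 CPM in 3'RR-deficient LPS libraries, with 132 and 280.2 CPM in Eµ-deficient cells. One LPS library, 3'RR-deficient replicate 1, lay among the non-stimulated ones. The log2 fold change was 0.96 (SE 0.42, 95% interval 0.05 to 1.88, adjusted p = 0.120 by edgeR), 0.67 without both second non-stimulated libraries (adjusted p = 0.231) and 1.10 without both first ones, where it passed (adjusted p = 0.0390).

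miR-92a-3p had 32363 and 91917 CPM in wt non-stimulated libraries and 47710 and 71270 CPM with LPS. In 3'RR-deficient cells it had 43997 and 86794 CPM without and 67249 and 66841 CPM with LPS, and in Eµ-deficient cells 34780 and 43048 CPM. All 5 LPS libraries lay between the first and the second non-stimulated libraries of wt cells. The log2 fold change was -0.05 (SE 0.48, 95% interval -1.10 to 1.01, adjusted p = 0.945 by edgeR), an interval that leaves room for a 2-fold change in either direction. Its sign turned with the non-stimulated libraries used: 0.65 without both second ones (adjusted p = 0.179) and -0.64 without both first ones (adjusted p = 0.0672).

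Counted by separation of the libraries, 7 of 9 members had all 4 LPS libraries of wt and 3'RR-deficient cells above their 4 non-stimulated ones, against 18.9% of the 720 features tested. With the Eµ-deficient libraries included, the same 7 were separate with 5 against 5, against 14.2% of those features. The exceptions were miR-17-3p and miR-92a-3p. Without the second non-stimulated libraries edgeR called 6 members, with 217 of 824 features called in that fit, and without the first ones 7, with 292 of 756 features called.

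Within wt cells alone, with 2 libraries against 2, no member passed by edgeR, where 0.694% of 720 features passed. An unadjusted p under 0.05 was reached by 4 of 9 members and by 156 of the 720 features. The log2 fold changes ran from -0.09 (miR-92a-3p) to 3.60 (miR-17-5p, 95% interval 1.34 to 5.86, adjusted p = 0.0906 by edgeR), with a median of 2.34. Within 3'RR-deficient cells no member passed, where 0.972% of 720 features passed, and 2 of 9 members and 139 of the 720 features reached an unadjusted p under 0.05. There the values ran from -0.00055 (miR-92a-3p) to 3.02 (miR-18a-5p, 95% interval 0.43 to 5.62, adjusted p = 0.196), with a median of 2.04. No relative passed in either genotype, and the most abundant, miR-25-3p, miR-93-5p and miR-106b-3p, had log2 fold changes of -0.09, 1.26 and 0.19 for wt and of -0.21, 0.62 and -0.01 for the 3'RR-deficient genotype. The DESeq2 Wald test gave 4 called members for wt, with 103 of 720 features called, and 2 for the 3'RR-deficient genotype, with 97 of 720 called. Without both first non-stimulated libraries edgeR called 6 members in each genotype (195 of 756 features for wt and 160 for 3'RR-deficient cells), and without both second ones 5 for wt and 0 for the 3'RR-deficient genotype (79 and 50 of 824 features). These fits hold a single non-stimulated library in each genotype, which is assumed to vary as the LPS libraries do, since only those still give a spread. In Eµ-deficient cells, with 1 library per condition and no test, member levels with LPS were 1.24-fold (miR-92a-3p) to 4.53-fold (miR-18a-5p) those without. How many of all features were also higher there was not counted.

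**Figure D3:**
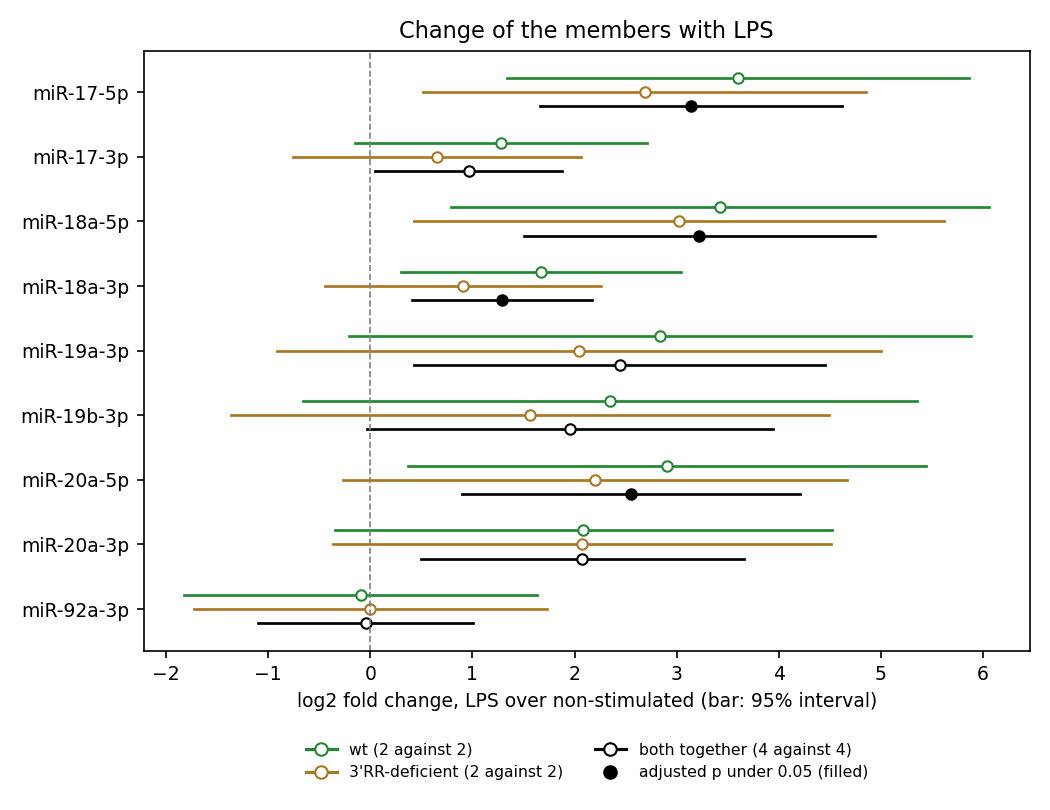
Log2 fold change of each member with LPS in wt cells, in 3'RR-deficient cells and in both together, with bars for the 95% interval of edgeR's fit and filled points for an adjusted p under 0.05. The filled points are miR-17-5p (3.14), miR-18a-5p (3.22), miR-18a-3p (1.29) and miR-20a-5p (2.55) in the joint comparison, and miR-92a-3p lies between -0.09 and -0.00055 in all 3.

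MicroRNAs known from other cell types moved with the condition as well. Across wt and 3'RR-deficient cells 5 of the 9 listed ones fell (miR-223-3p, miR-486a-5p, miR-143-3p, miR-145a-5p and miR-199a-3p), where 62 of 720 features were called lower. In Eµ-deficient cells miR-143-3p stood at 438 CPM without and 807 CPM with LPS, and miR-199a-3p at 70.8 and 108 CPM. The summed CPM of the 9 (erythroid, myeloid, endothelial, stromal and hepatocyte) was 3174 to 13455 in the non-stimulated libraries and 295 to 5016 in the LPS libraries, miR-223-3p of myeloid cells fell by 3.49 on the log2 scale (adjusted p = 0.00261 by edgeR), miR-122-5p of hepatocytes was at 0 in 3 libraries, and miR-145a-5p in 2. Their part in the change of the members was not tested. In such bulk RNA, fewer cells of a type and less of a microRNA per cell cannot be told apart. Of the 5 lymphocyte microRNAs 1 rose and 2 fell: miR-155-5p, which is induced on B-cell activation, rose by 2.76 (adjusted p = 0.00261), and miR-150-5p of resting lymphocytes and miR-181a-5p fell by 2.45 and 2.31 on the log2 scale (adjusted p = 0.00392 and 0.00718, by edgeR). miR-142a-3p (0.92) and miR-142a-5p (-0.18) did not pass.

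Both strands of a hairpin come from the same precursor, so their ratio within a library does not depend on scaling between libraries. Their GC content is 54.5% (3p) and 47.8% (5p) for miR-17 and 54.5% and 43.5% for miR-18a. For miR-20a it is 40.9% and 39.1%. The part of GC content in the ratios was not tested. For miR-17 the ratio of 3p to 5p counts was 0.367 and 1.88 in the wt non-stimulated libraries, 0.356 and 1.11 in the 3'RR-deficient and 0.334 in the Eµ-deficient non-stimulated ones. With LPS it was 0.150 and 0.108 in wt, 0.108 and 0.118 in 3'RR-deficient and 0.173 in Eµ-deficient cells. All LPS ratios were thus below all non-stimulated ones. The mean log2 ratio was -3.06 ± 0.22 (SD, n = 4) with and -0.47 ± 1.19 (SD, n = 4) without LPS, a difference of -2.59 with p = 0.0286 by an exact permutation test (two-sided), the smallest p that 4 against 4 can give. Adjusted over the 3 hairpins with both strands among the members, that p was 0.0857 and did not pass. With the Eµ-deficient libraries added, the difference was -2.26 and the adjusted p of the exact test was 0.0238. Without both second non-stimulated libraries the difference was -1.60.

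For miR-18a the ratio of 3p to 5p was 0.336 and 4.80 for wt non-stimulated libraries and 0.528 and 4.39 for 3'RR-deficient ones. With LPS it was 0.224 and 0.228 for wt and 0.380 and 0.168 for 3'RR-deficient libraries. In Eµ-deficient cells it was 0.743 without and 0.740 with LPS. The groups of wt and 3'RR-deficient libraries overlapped, and the difference of -2.53 (log2) had an exact permutation p of 0.0571 (adjusted p = 0.0857). It was -0.82 without both second non-stimulated libraries and -3.20 to -1.94 with 1 library left out. For miR-20a, whose 3p strand never exceeded 0.0401 of its 5p strand, the difference of -0.61 had an exact permutation p of 0.429 and ran from -0.97 to -0.09 with 1 library left out (-0.09 without wt non-stimulated replicate 2).

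miR-92a-3p was looked at through the 5p strands of its hairpins, since these differ between chromosome 14 and chromosome X. miR-92a-1-5p, from the Mir17hg hairpin (chr14:115044437-115044459), had 29.1 and 47.0 CPM in wt non-stimulated libraries and 287 and 269.7 CPM with LPS, 36.5 and 37.3 CPM in 3'RR-deficient non-stimulated and 162 and 248 CPM in LPS libraries, and 17.4 and 105 CPM in Eµ-deficient cells. Every LPS library was above every non-stimulated one, and here the second non-stimulated libraries were not below the first. The log2 fold change was 2.64 (SE 0.42, 95% interval 1.72 to 3.57, adjusted p = 0.00261 by edgeR), and it stayed between 2.08 and 2.95 and past the threshold in all 21 alternatives, including 2.75 without both second and 2.38 without both first non-stimulated libraries. miR-92a-2-5p, from the X-linked hairpin (chrX:52741892-52741913), was rarer, at 1.24 to 3.66 CPM without and 13.5 to 21.7 CPM with LPS over the 10 libraries, and rose by 3.11 on the log2 scale (SE 0.58, adjusted p = 0.00543 by edgeR), which also passed in all 21 alternatives. The chromosome 14 strand exceeded the X-linked one in every library, by 5.09-fold to 25.1-fold in counts.

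The mature 3p strand and its 5p partners thus differed in their values with LPS. miR-92a-3p had 1113 to 2327 counts per count of miR-92a-1-5p in the 5 non-stimulated libraries and 166.5 to 414 in the 5 LPS libraries, with no overlap, and this ratio was not tested. The GC contents are 57.1% for miR-92a-3p and 47.8% for miR-92a-1-5p. The 5p strands of the miR-19b hairpins were too rare for such a comparison, with 0 to 94 counts of miR-19b-1-5p and 0 or 1 count of miR-19b-2-5p in a library.

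**Figure D4:**
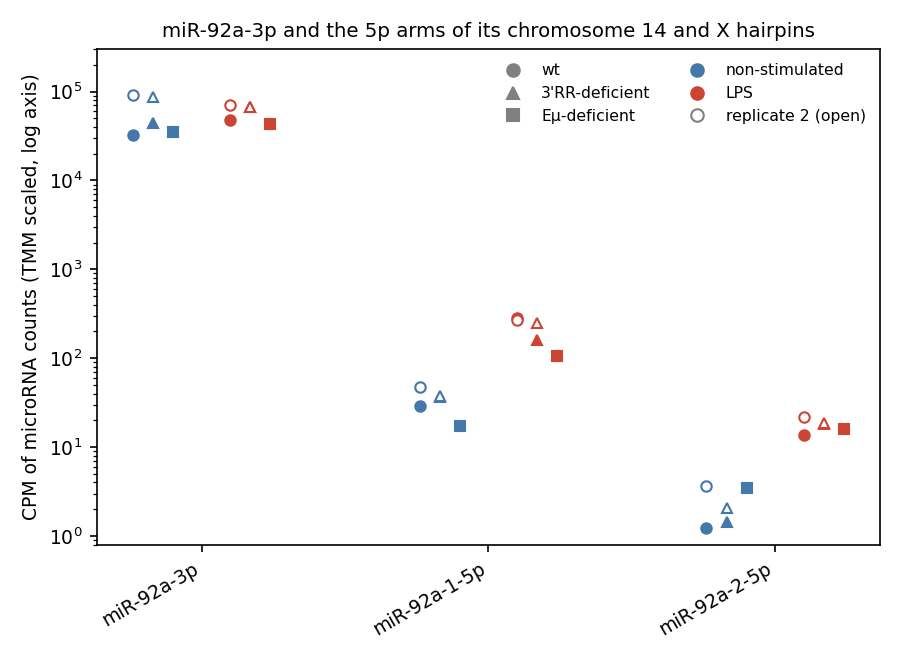
CPM of miR-92a-3p and of the 5p strands of its chromosome 14 (miR-92a-1-5p) and chromosome X (miR-92a-2-5p) hairpins in each of the 10 libraries on a log axis, with the symbols of the plot of all members. Both 5p strands separate LPS (105 to 287 and 13.5 to 21.7 CPM) from non-stimulated libraries (17.4 to 47.0 and 1.24 to 3.66 CPM), and miR-92a-3p does not.

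Beside the members, 22 relatives were listed, comprising the paralogous clusters, seed relatives and the other strands of the hairpins, and 18 of them were tested with LPS. Of these 7 rose and 0 fell, 17 of 18 values were above 0, and the median log2 fold change was 1.41. Over all 720 features 95 were called higher and 62 lower, 372 values were above 0 and the median was 0.07. Besides the 5p strands of miR-92a, the ones that rose all came from the X-linked cluster: miR-106a-5p (2.85, adjusted p = 0.0121 by edgeR), miR-20b-5p (2.66, adjusted p = 0.0159), miR-18b-5p (3.07, adjusted p = 0.0320), miR-363-5p (2.10, adjusted p = 0.0128) and miR-363-3p (1.70, adjusted p = 0.0302), which carries the seed of miR-92a-3p. Leaving out wt LPS replicate 1 ended the call of miR-20b-5p and miR-363-5p, and leaving out 1 of several libraries ended those of miR-363-3p (6 of 8 cases) and miR-18b-5p (5 of 8). None of the tested strands of miR-106b~25, which holds further AAAGUGC and AUUGCAC seeds, passed. Its miR-93-5p had 0.94 (adjusted p = 0.180), miR-106b-5p 1.12 (adjusted p = 0.278) and miR-25-3p -0.15 (adjusted p = 0.803). miR-106a-5p moved from 24.6 to 157 CPM without LPS to 369 to 835 CPM with LPS, so it stayed below miR-17-5p, from which it differs by 1 base.

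Over all 10 libraries, the mature microRNAs whose log2 CPM (prior count 2) was most like that of miR-17-5p, among 149 others with a mean of at least 100 CPM, were miR-20b-5p (Pearson's r = 0.995), miR-106a-5p (0.994), miR-130b-3p (0.985), miR-7a-5p (0.980) and miR-7b-5p (0.978). Among the members r with miR-17-5p was 0.983 for miR-20a-5p, 0.981 for miR-18a-5p, 0.956 for miR-19a-3p, 0.933 for miR-19b-3p, 0.908 for miR-20a-3p, 0.846 for miR-17-3p, 0.763 for miR-18a-3p and -0.240 for miR-92a-3p. The microRNAs most like miR-92a-3p were miR-106b-3p (0.860), miR-25-5p (0.851) and miR-423-3p (0.812). These are descriptions over 10 libraries that fall into groups of the same condition and differ in depth. Base composition was alike for some: miR-20b-5p and miR-106a-5p have 47.8% GC, as miR-17-5p does, and the 3 most like miR-92a-3p have 59.1% to 65.2%, whereas miR-7a-5p and miR-7b-5p have 34.8% and 33.3%.

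The second comparison asked whether the 3'RR or Eµ affects the members. No member passed the test between 3'RR-deficient and wt cells. Over both conditions the log2 differences (3'RR-deficient over wt) ran from -0.51 (miR-20a-3p) to 0.16 (miR-92a-3p), with a median of -0.18 and adjusted p of 0.997 for each of the 9 by edgeR, where 0.139% of 720 features passed. For miR-17-5p the value was -0.10 with a 95% interval of -1.47 to 1.27, and for miR-92a-3p 0.16 with an interval of -0.89 to 1.22, so that differences of about 2-fold were within reach of the error. Of the 9, 0 had an unadjusted p under 0.05 in this comparison or in either condition alone, and the DESeq2 Wald test called 0. Of the 18 relatives tested over both conditions 0 passed, and the 3 most abundant, miR-25-3p, miR-93-5p and miR-106b-3p, had 0.23, 0.02 and 0.08 (adjusted p = 0.997 for each by edgeR).

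Without LPS, 7 of 9 values were above 0, from -0.51 (miR-20a-3p) to 0.40 (miR-18a-3p), against 378 of the 720 features. The signs of the members rested on single libraries: with 1 library left out each of the 9 values took both signs. miR-17-5p ran from -1.24 (without 3'RR-deficient non-stimulated replicate 1) to 1.57 (without wt non-stimulated replicate 1) and miR-19a-3p from -3.51 to 2.48. By edgeR 0% of the 720 features passed, with 9 at an unadjusted p under 0.05, and DESeq2 called 1. Same-numbered libraries gave miR-17-5p log2 ratios of 0.18 (replicates 1) and 0.11 (replicates 2), and miR-19a-3p -0.15 and -0.88. With LPS, 8 of 9 values were below 0, from -0.77 (miR-19a-3p) to 0.21 (miR-92a-3p), against 378 of the 720 features. Here 0% of the features passed by edgeR, 15 reached an unadjusted p under 0.05, and DESeq2 called 2. In LPS cells the 3'RR-deficient replicate 1 was the lowest of the 4 wt and 3'RR-deficient libraries for 8 of 9 members, and of these 8 the 3'RR-deficient replicate 2 exceeded a wt library for miR-17-5p, miR-18a-5p, miR-20a-5p and miR-20a-3p. All 95% intervals of the members included 0, the narrowest with LPS being -1.69 to 0.98 for miR-18a-3p.

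The difference of the LPS responses, 3'RR-deficient minus wt, ran from -0.92 (miR-17-5p, 95% interval -3.81 to 1.97) to 0.09 (miR-92a-3p) on the log2 scale. Of the 9 values 8 were below 0, against 353 of the 720 features. With 1 library left out 7 of the 9 took both signs, with miR-17-5p from -2.10 (without wt non-stimulated replicate 1) to 0.71 (without 3'RR-deficient non-stimulated replicate 1) and miR-19b-3p from -3.28 to 2.71. None passed, 0 had an unadjusted p under 0.05, and of the 720 features 0% passed by edgeR, with 5 at an unadjusted p under 0.05 and 0 called by DESeq2. The widest interval, that of miR-19b-3p, ran from -4.83 to 3.27.

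With 1 library per condition, Eµ-deficient cells were tested against wt over both conditions together, with genotype and condition as terms for the 10 libraries. None of the 9 members passed and 0 had an unadjusted p under 0.05, where 1.62% of 988 features passed by edgeR, and DESeq2 called 0 members. The log2 differences (Eµ-deficient over wt) ran from -0.95 (miR-18a-5p, 95% interval -2.80 to 0.90) to 0.27 (miR-20a-5p), with miR-92a-3p at -0.65 (95% interval -1.89 to 0.59) and miR-17-5p at 0.01. Among the single libraries, the Eµ-deficient LPS library had the lowest miR-18a-5p of the LPS libraries (197 CPM against 232 to 707) and the lowest miR-92a-3p (43048 CPM against 47710 to 71270), and the highest miR-18a-3p (146 CPM against 88.0 to 135). Without LPS, the Eµ-deficient library lay below the other 4 for miR-18a-3p (32.3 CPM against 36.3 to 57.1) and within their range for the other 8. Of the 19 relatives tested, 0 passed. The most abundant, miR-25-3p, miR-93-5p and miR-106b-3p, had -0.54, -0.83 and -0.90 (adjusted p = 0.727, 0.643 and 0.515 by edgeR). Chosen after their values were seen, miR-92a-1-5p had -1.27 (unadjusted p = 0.0267, adjusted p = 0.309) and miR-363-5p -1.62 (unadjusted p = 0.0183, adjusted p = 0.263), and both had their lowest CPM of each condition in the Eµ-deficient library.

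**Figure D5:**
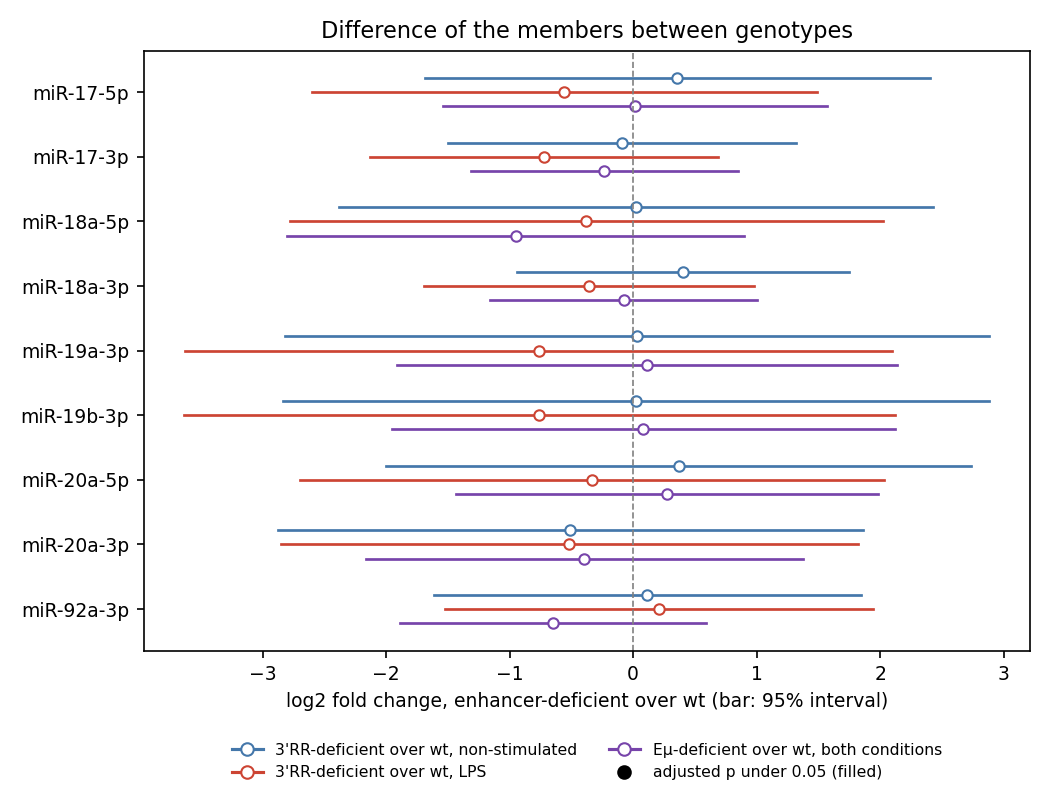
Log2 difference of each member between 3'RR-deficient and wt cells without and with LPS, and between Eµ-deficient and wt cells over both conditions, with bars for the 95% interval of edgeR's fit. No point is filled, since no adjusted p was under 0.05, and every interval includes 0. The points run from -0.95 (miR-18a-5p, Eµ-deficient) to 0.40 (miR-18a-3p, 3'RR-deficient without LPS).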

How the data were processed

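Per the labels, total RNA (1 µg) was made into libraries with the NextFlex small RNAseq kit V3 in 17 PCR cycles, size-selected at 140 to 160 nt and sequenced with 75 nt reads. The submitters' processing notes list cutadapt 1.2.1, Bowtie2 and mm10. The counting program and the handling of multiple matches are not given in the sources used here. The authors deposited raw, unnormalized read counts for each small RNA feature in each library, and the study names no test for them. Its text speaks of cells before and after stimulation where the labels give culture for both, and if the former holds, LPS and culture cannot be told apart. Chromosome 14 hairpin rows were not analysed here.

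The microRNA class was fitted with edgeR 4.0.16 in R 4.3.3 (TMM, filterByExpr, quasi-likelihood F-test, Benjamini-Hochberg over all features tested). LPS and 3'RR comparisons used the 8 wt and 3'RR-deficient libraries, with group means within a genotype or condition and additive terms otherwise. Eµ-deficient cells used all 10. Intervals are 95%. Of 1302 mature names, 1093 matched RefSeq by name, 1085 of them at the same position. Strand ratios used a prior count of 2 and an exact permutation test.

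The members, lists and tests were chosen with earlier results of these data known. All members were named whatever their result, relatives where they passed or, with fewer than 3 passing, by mean CPM, and look-alikes by r. Alternatives were other scalings, filters, feature sets, DESeq2 1.42.0, replicate blocks, a GC correction (loess, span 0.75), a prior count of 0.5 and left-out libraries. The code was tested on simulated data.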

Additional observations from a re-analysis of the deposited data

Results flagged for a closer look

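Both rows below are outside the comparisons of the report and were picked out because they hold counts with LPS above the level of the non-stimulated libraries. They were chosen after their values were seen and were not tested.

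The row for the whole X-linked Mir92-2 hairpin (chromosome X, 52741838 to 52741928) had 0 counts in all 5 non-stimulated libraries, where a count of 0 allows up to 3 counts, and between 5 and 19 counts in the wt and 3'RR-deficient LPS libraries. It had 0 counts in the Eµ-deficient LPS library, the deepest of all. Of the 4 other hairpin rows of the X-linked cluster, each stood at 0 without LPS and at 0 to 3 counts in the wt and 3'RR-deficient LPS libraries, and 2 of them had 9 and 4 counts in the Eµ-deficient LPS library.

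A piRNA cluster row on the opposite strand (chromosome 14, 115039203 to 115049014) spans the Mir17hg region. It had 11.1 to 52.2 counts per 1000000 counts of the library in the non-stimulated libraries and 67.7 to 111 in the LPS libraries, all 5 above all non-stimulated ones. The Eµ-deficient libraries moved from 13.3 to 91.1.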

How the results depend on the processing

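The number of members called with LPS (4 in both genotypes together) was 0 when all features of the table were fitted (180 of 3987 features called), 7 with the DESeq2 Wald test (247 of 720) and 8 with the GC trend removed (131 of 501). It was 7 with the GC trend removed together with the replicate block within condition (135 of 501), and 7 without both first non-stimulated libraries (292 of 756). Leaving out 1 library gave 1 to 6 calls (1 without wt LPS replicate 1, and 2 without either second non-stimulated library, wt LPS replicate 2 or 3'RR-deficient LPS replicate 1). In wt cells alone (0 calls) it was 1 with total count scaling (10 of 720 features called), 2 without the filter (50 of 1799), 4 with DESeq2 (103 of 720), 4 with the GC trend removed (41 of 501), 6 with that and the block within condition (85 of 501), 6 without both first (195 of 756) and 5 without both second non-stimulated libraries (79 of 824), and 0 to 4 with 1 library left out. In 3'RR-deficient cells alone (0 calls) it was 1 without the filter (31 of 1799), 2 with DESeq2 (97 of 720), 4 with the GC trend removed and the block within condition (64 of 501), 6 without both first non-stimulated libraries (160 of 756), and 0 to 6 with 1 library left out, the 6 without 3'RR-deficient non-stimulated replicate 1 (62 of 776). Where a group keeps 1 library, it is assumed to vary like the other groups. The causes were not tested.

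Over all features, the 157 calls with LPS became 247 with DESeq2, 292 without both first non-stimulated libraries and 71 to 163 with 1 library left out (75 and 71 without wt LPS replicates 1 and 2). The 5 calls in wt cells became 0 to 195 and the 7 in 3'RR-deficient cells 0 to 160 over the alternatives, and the 16 for Eµ-deficient cells 1 to 156. Of the calls with LPS 95 of 157 were higher, against 65 of 132 when only mature microRNAs were fitted and 86 of 180 when all features were. The median of all features was 0.07, -0.01 with total count scaling, and -0.21 with mature microRNAs only, where 3 members were called.

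In the fit of all features, the log2 fold change was 2.26 for miR-17-5p (adjusted p = 0.124) and -0.50 for miR-92a-3p. This was the only 1 of 21 alternatives that ended the call of miR-17-5p, whose values ran from 2.22 to 4.67. miR-92a-3p was called in none of 21, from -0.64 to 0.74.

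Same-numbered libraries share a number, not a stated animal, batch or day. Their replicate differences correlated across 720 features with r = 0.662 between the non-stimulated groups and 0.113 between the LPS groups, and from -0.286 to -0.059 otherwise. A replicate block gave 7 called members with LPS in both genotypes together (156 of 720 features called) and 1 in wt cells (27 of 720). A replicate block within condition gave 5 calls for wt (99 of 720), 2 for the 3'RR-deficient genotype (90 of 720) and 1 for Eµ-deficient against wt (miR-18a-5p, -1.21, adjusted p = 0.0117), where 105 of 988 features were called. In the other comparisons of genotypes 0 members were called in each alternative run.

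The difference of strand ratios for miR-17 was -2.26 with all 10 libraries and -2.93 to -2.13 with 1 library left out. With 2 libraries in a group and a biological coefficient of variation of 69.7% to 79.0%, the 95% intervals of most members between genotypes included 2-fold differences. Duplicated PCR molecules could not be told apart in these counts.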
